A study of Mus musculus with 2 samples.

Results

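The vacuolar proton pump (V-ATPase) is described here in 10 of its subunit genes, of the 31053 genes measured, across the cell types of mouse kidney cortex. The members were chosen by symbol. They are 5 subunits known as kidney-type isoforms (Atp6v1g3, Atp6v0d2, Atp6v1c2, Atp6v1b1 and Atp6v0a4) and 5 that most cells use (Atp6v1a, Atp6v1b2, Atp6v0d1, Atp6v0a1 and Atp6v1g1). Another 15 genes of pump subunits and accessory proteins served as the rest of the family. All 10 members had UMIs (unique molecular identifiers, which count captured mRNA molecules) in both libraries.

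The data were 2 droplet single-cell RNA-seq libraries of kidney cortex from mice aged 12 weeks. The I-PpoI library came from mice that express I-PpoI, a homing endonuclease that cuts DNA, in podocytes. The other library came from wild-type mice. The promoter that drives I-PpoI, the strain and the number of mice per library are not given in the sources used here, and podocytes are not among the classes below, because none of the 29 clusters was named after them. With 1 library per group no difference between the libraries could be tested, and each interval below is a 95% interval that covers counting error only.

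The pump turns ATP hydrolysis into proton transport. Its V1 part sits in the cytosol and holds the catalytic A subunit (Atp6v1a), the B subunit (Atp6v1b1 or Atp6v1b2), and the C and G subunits of its stalks (Atp6v1c2 and Atp6v1g3, Atp6v1g1 among others). Its V0 part sits in the membrane and holds the a subunit (Atp6v0a1, Atp6v0a4 and others), through which protons pass, and the d subunit (Atp6v0d1 or Atp6v0d2), which joins V0 to the central stalk. Every cell uses such pumps to acidify lysosomes. Intercalated cells of the distal nephron also place the pump in the plasma membrane, where type A cells secrete acid into urine and type B cells do the reverse. Loss of the kidney forms of B and a (Atp6v1b1 and Atp6v0a4) is a known cause of distal renal tubular acidosis.

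The genes lie apart in the genome, so the kidney-type members share no locus. In GENCODE vM21 (mouse GRCm38), Atp6v1g3 is at chr1:138273738-138289462 on the plus strand, Atp6v0d2 at chr4:19876841-19922605 on the minus strand and Atp6v1c2 at chr12:17284721-17329359 on the minus strand. On chromosome 6, Atp6v1b1 lies at 83742990 to 83758855 (plus) and Atp6v0a4 at 38048483 to 38124586 (minus). Of the widely used members, Atp6v1a is at chr16:44085402-44139705 (minus), Atp6v1b2 at chr8:69088646-69113711 (plus), Atp6v0d1 at chr8:105524465-105566047 (minus), Atp6v0a1 at chr11:101009452-101063719 (plus) and Atp6v1g1 at chr4:63544772-63550750 (plus). All 10 symbols paired with the same identifier in the files and the annotation. Atp6v0a4 overlaps D630045J12Rik on the same strand and Atp6v0a1 overlaps the microRNA gene Mir6928, so part of their counts could be shared. Atp6v0c, the proteolipid of the family list, has 2 named pseudogenes, and its counts are uncertain for that reason.

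Promoter windows (250 bases before to 50 after the start, RefSeq, GRCm38.p6) were found for 7 of the 10 members. They are shown for 4 members, because those hold a match to either of 2 kinds of word searched on both strands. The first kind is the forkhead family's core, to which Foxi1, the regulator that defines intercalated cells, belongs: TGTTTAC (in 3.65% of all 32851 windows), TGTTTGC (5.07%), TGTTTGT (6.61%) and TGTTTAT (4.6%). At least 1 of these 4 is in 17.7% of windows. The second is the E-box CACGTG, in 7.15% of windows, and its longer form TCACGTGA, in 0.974%, a word known from promoters of lysosomal genes. The E-box lies inside the longer form. Capitals mark the matched letters (CACGTG for the E-box).
Atp6v1b1 promoter: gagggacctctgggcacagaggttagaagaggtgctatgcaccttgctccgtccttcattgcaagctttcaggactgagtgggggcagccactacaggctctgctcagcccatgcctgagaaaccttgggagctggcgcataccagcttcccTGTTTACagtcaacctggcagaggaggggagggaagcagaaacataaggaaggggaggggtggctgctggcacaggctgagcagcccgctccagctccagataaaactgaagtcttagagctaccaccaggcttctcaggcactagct
Atp6v1g3 promoter: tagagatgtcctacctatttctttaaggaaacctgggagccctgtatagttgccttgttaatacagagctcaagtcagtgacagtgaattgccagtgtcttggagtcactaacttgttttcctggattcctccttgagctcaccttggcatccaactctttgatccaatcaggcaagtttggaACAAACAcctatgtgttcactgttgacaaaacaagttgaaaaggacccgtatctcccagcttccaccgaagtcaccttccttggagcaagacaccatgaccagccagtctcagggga
Atp6v1a promoter: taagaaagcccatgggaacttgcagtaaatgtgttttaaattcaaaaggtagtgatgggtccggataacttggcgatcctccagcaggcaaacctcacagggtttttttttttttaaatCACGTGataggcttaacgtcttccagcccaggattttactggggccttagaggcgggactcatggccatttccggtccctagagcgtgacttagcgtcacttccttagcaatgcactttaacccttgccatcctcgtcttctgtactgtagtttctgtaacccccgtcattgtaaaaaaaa
Atp6v0d1 promoter: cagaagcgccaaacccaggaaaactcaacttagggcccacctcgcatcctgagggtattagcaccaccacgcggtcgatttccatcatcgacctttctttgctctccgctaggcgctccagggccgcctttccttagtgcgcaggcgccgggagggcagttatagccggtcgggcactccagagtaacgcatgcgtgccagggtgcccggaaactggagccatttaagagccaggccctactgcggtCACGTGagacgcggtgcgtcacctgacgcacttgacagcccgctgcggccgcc
The windows are at chr6:83742767-83743066 (plus strand) for Atp6v1b1, chr1:138273488-138273787 (plus) for Atp6v1g3, chr16:44139210-44139509 (minus) for Atp6v1a and chr8:105566015-105566314 (minus) for Atp6v0d1. The forkhead word TGTTTAC began 98 bases before the start in Atp6v1b1, and Atp6v1g3 held TGTTTGT on the opposite strand, read as ACAAACA, 67 bases before the start. Both E-boxes had the long form: that of Atp6v1a began 131 bases before the start and that of Atp6v0d1 began 3 bases before it. The windows of Atp6v1c2, Atp6v0a4 and Atp6v0a1 held none of these letters. A match is a description of the sequence and shows no binding. The RefSeq start lies inside the GENCODE gene by 27 bases for Atp6v1b1, 446 for Atp6v1a, 946 for Atp6v0a1 and 4629 for Atp6v1c2.

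After filters, 3920 I-PpoI cells (median 6616 UMIs) and 3071 wild-type cells (median 3485) were clustered without the pump genes. Mitochondrial genes gave a median of 3.31% of UMIs per I-PpoI cell and 14.3% per wild-type cell, and 6 cell barcodes occurred in both libraries, 3 of them among the cells kept. Clusters were named from marker genes as 12 classes, written "-like". One cluster held all intercalated-like cells, 46 in the I-PpoI and 55 in the wild-type library, with all 11 markers detected, Foxi1 among them. Some of these cells also carried the principal cell's water channel: 7 of 46 I-PpoI and 15 of 55 wild-type intercalated-like cells held 3 or more UMIs of Aqp2. They were deep (median 43628 and 44348 UMIs) and gave 30.9% and 66.1% of the class's UMIs, so some results are also given without them. Whether they are doublets was not tested. Macrophage-like cells came from clusters led by C1qa and by Lyz2 with Mmp12. The I-PpoI library had 1681 of them, spread over several clusters, and the wild-type library 209, of which 158 were in a single cluster.

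All 5 kidney-type subunits had their highest level of any class in intercalated-like cells, in both libraries. Levels are CPM, a gene's UMIs per 1000000 UMIs of its class. Atp6v1g3, the kidney form of stalk subunit G, stood at 3300.1 CPM (3190 to 3413) in the I-PpoI and 3696 CPM (3579 to 3816) in the wild-type library, and every intercalated-like cell of both libraries held at least 1 of its UMIs. Atp6v0d2 stood at 657 and 623 CPM, with intervals of 608 to 708 and 575 to 673. Atp6v0a4 was at 481 and 678 CPM, Atp6v1b1 at 280 and 386 CPM, and Atp6v1c2 at 216 and 469 CPM. The levels of Atp6v0d2 overlapped between the libraries, and the other 4 were lower in the I-PpoI library.

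**Figure D1:**
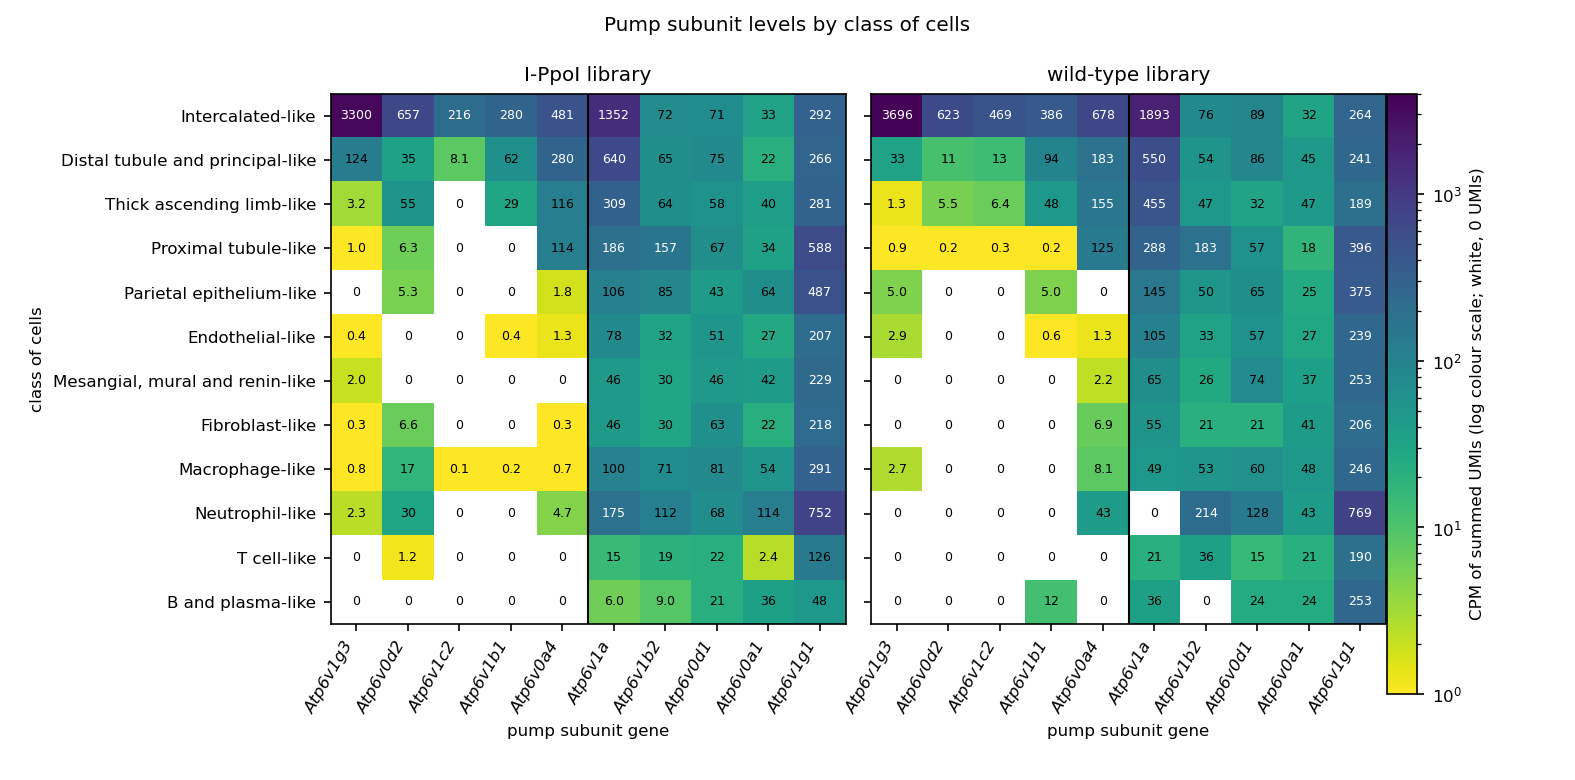
CPM of each pump subunit (columns) in each class of cells (rows) of the I-PpoI library (left) and the wild-type library (right), on a log colour scale, with the value printed in each square and white for 0 UMIs. The 5 kidney-type genes left of the line peak in intercalated-like cells, while the genes right of it are present in most classes. Wild-type parietal, fibroblast and neutrophil-like and I-PpoI B and plasma-like cells numbered under 30.

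Among the widely used members, Atp6v1a was the exception in these cells. This catalytic subunit, which has no kidney isoform, stood at 1352 CPM (I-PpoI) and 1893 CPM (wild-type), its highest level among the classes in both libraries. Atp6v1g1 was at 292 and 264 CPM, Atp6v1b2 at 72.3 and 75.9 CPM, Atp6v0d1 at 71.3 and 88.7 CPM, and Atp6v0a1 at 33.2 and 31.5 CPM. These 4 had UMIs in every I-PpoI class of the comparison, and T cell-like cells were lowest for each. Across those classes Atp6v0d1 ranged from 21.8 to 81.1 CPM, Atp6v1g1 from 126 to 752 CPM, Atp6v1b2 from 19.4 to 157 CPM and Atp6v0a1 from 2.42 to 114 CPM.

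Cells of 1 class varied as well. Among the intercalated-like cells with 1000 or more UMIs (44 I-PpoI and 48 wild-type), Atp6v1g3 had a median of 36.2 and 45.2 UMIs per 10000, and ranged from 4.75 to 157 in the I-PpoI and from 2.10 to 235 in the wild-type library. Atp6v1c2 had a median of 1.91 (I-PpoI) and 5.10 (wild-type) per 10000, from 0 up to 22.8 and 20.0. When each cell was thinned to 1000 UMIs, Atp6v1g3 was seen in 93.2% of I-PpoI and 91.7% of wild-type intercalated-like cells, Atp6v0d2 in 61.4% and 43.8%, Atp6v0a4 in 34.1% and 52.1%, Atp6v1c2 in 27.3% and 41.7% and Atp6v1b1 in 27.3% and 22.9%. Unthinned, Atp6v1b1 was seen in 84.8% and 76.4% of these cells. T cell-like cells (median depths of 2877 and 3012 UMIs), which should lack the kidney forms, had a thinned share of 0 for each of these 5 genes, among 253 and 58 cells; 1 UMI of Atp6v0d2 in an I-PpoI cell was the sum of all their UMIs before thinning. In endothelial-like cells (4201 and 3381.5 UMIs) the shares were at most 0.297%. The intercalated-like cells were deeper before thinning, with medians of 17890 and 12490 UMIs.

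The question asked of intercalated against macrophage-like cells is how far each isoform separates a cell that secretes protons from one that acidifies its lysosomes. All 5 kidney-type subunits were 4-fold or more higher in intercalated-like cells in both libraries, and the median log2 ratio in the I-PpoI library was 10.27, that of Atp6v1b1, which had 3 macrophage UMIs. In the wild-type library 3 of the 5 had 0 UMIs in macrophage-like cells, and with each such 0 set at 3 UMIs the member in the middle was Atp6v1c2, 174-fold higher. Counting all 10 members, 6 passed 4-fold in each library, the sixth being Atp6v1a. Of all genes tested, 15.9% (I-PpoI) and 16.5% (wild-type) were 4-fold or more higher, and the median log2 ratio over all genes was 0.61 and 0.36. No member was 4-fold lower, where 11.3% and 11.2% of all genes were.

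Atp6v1g3 had 12 UMIs among 1681 I-PpoI macrophage-like cells and 3 UMIs among 209 wild-type ones. That left it 4221-fold (2413 to 8177) and 1370-fold (469 to 6647) higher in intercalated-like cells. Atp6v0a4 was 738-fold (398 to 1548) and 83.8-fold (43.9 to 184) higher. Its wild-type macrophage-like value was 9 UMIs in 3 cells, 5 of them in 1 cell. Atp6v1b1 was 1435-fold (486 to 6997) higher in the I-PpoI library. In the wild-type library Atp6v1b1, Atp6v1c2 and Atp6v0d2 had 0 UMIs in macrophage-like cells. With each 0 set at 3 UMIs, they were 143-fold, 174-fold and 231-fold higher in intercalated-like cells. These 3 values are not lower bounds of an interval. Atp6v0d2 stood apart in the I-PpoI library: it had 260 UMIs in macrophage-like cells and was 38.8-fold (33.5 to 44.9) higher in intercalated-like cells. Its macrophage signal is described below.

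Widely used subunits other than Atp6v1a did not separate the classes. Atp6v1a was 13.5-fold (12.5 to 14.5) higher in intercalated-like cells of the I-PpoI library and 39.0-fold (29.8 to 52.1) higher in the wild-type library. Atp6v1g1 had ratios of 1.00 (0.890 to 1.13) and 1.07 (0.903 to 1.27), and Atp6v1b2 of 1.02 (0.795 to 1.29) and 1.43 (1.01 to 2.04). Atp6v0d1 was at 0.879 (0.685 to 1.11) and 1.47 (1.06 to 2.05), and Atp6v0a1 was the lower of the set, at 0.618 (0.425 to 0.871) and 0.662 (0.413 to 1.05). The median log2 ratio of these 5 was 0.01 (I-PpoI) and 0.51 (wild-type), beside 0.61 and 0.36 over all genes.

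**Figure D2:**
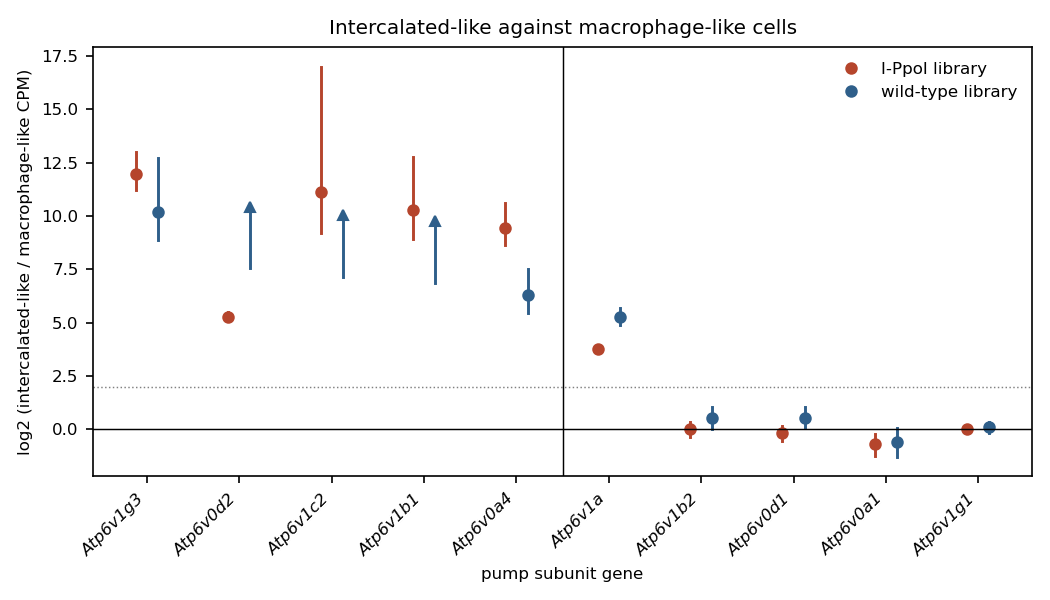
Log2 ratio of CPM in intercalated-like over macrophage-like cells for each member, by library, with 95% counting intervals; the dotted line marks 4-fold. Triangles mark genes with 0 UMIs in wild-type macrophage-like cells, drawn at the ratio with 0.5 UMIs added to each sum and with the lower bound alone. The 5 kidney-type genes and Atp6v1a lie above the line in both libraries.

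By median log2 ratio, the rest of the family lay between the groups, at 1.27 (I-PpoI) and 1.85 (wild-type). Of the 15 other pump genes, 13 (I-PpoI) and 12 (wild-type) had enough UMIs. Of these, 3 and 5 were 4-fold or more higher in intercalated-like cells, where 15.9% and 16.5% of all genes were. Tcirg1, the a3 isoform known from lysosomes and osteoclasts, was 4-fold or more lower in both libraries, where 11.3% and 11.2% of all genes were. Acid and base transport partners of intercalated cells were higher by 4-fold or more in 16 of 17 measured (I-PpoI) and 19 of 19 (wild-type). The same 15.9% and 16.5% of all genes apply. This list shares Foxi1, Slc4a1, Slc26a4 and others with the markers that named the class, so its count was partly set by the naming.

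Within each subunit position, the kidney isoform held most UMIs of intercalated-like cells. UMIs count mRNA 3' ends and are not scaled to length, so a share compares cells better than it compares genes. Atp6v1g3 gave 91.8% (90.9 to 92.7) of G subunit UMIs in the I-PpoI and 93.2% (92.4 to 94.0) in the wild-type library. At the d position, Atp6v0d2 gave 90.2% and 87.5%. At the a position, Atp6v0a4 gave 86.8% and 88.0%. Atp6v1c2 gave 82.8% (77.7 to 87.1) and 89.8% (86.9 to 92.3) of C subunit UMIs, and Atp6v1b1 gave 79.5% and 83.6% of B subunit UMIs. Without the Aqp2-bearing cells the wild-type shares were higher, 94.5% for Atp6v0a4 and 96.0% for Atp6v0d2.

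The isoforms did not change together along the nephron. In proximal tubule-like cells Atp6v0a4 gave 64.4% (61.3 to 67.5) and 66.5% (64.2 to 68.7) of their a subunit UMIs, while Atp6v1b1 gave 0 of 822 B subunit UMIs in the I-PpoI and 2 of 1645 in the wild-type library. Atp6v0d2 gave 33 of their 383 d subunit UMIs (8.62%, 6.01 to 11.9) in the I-PpoI and 2 of 511 in the wild-type library. Thick ascending limb-like cells combined a4 (59.7% and 61.3%) with B1 (31.4% and 50.2% of B subunit UMIs). At their d position the libraries stood apart. Atp6v0d2 gave 49.0% (44.4 to 53.7) in the I-PpoI and 14.8% (8.11 to 23.9) in the wild-type library. This class mixes cell types between the libraries, as described below. Among its cells with Slc12a1, I-PpoI UMIs were 156 for Atp6v0d2 and 100 for Atp6v0d1. Wild-type UMIs were 13 and 44. In distal tubule and principal-like cells, B1 gave 48.9% (I-PpoI) and 63.5% (wild-type) and a4 83.2% and 64.5%. In macrophage-like cells Tcirg1 gave 49.4% of a subunit UMIs in the I-PpoI and 31.0% in the wild-type library. Atp6v0a4 gave 0.424% and 6.21%, the latter from 9 UMIs in 3 of 209 cells, 5 of them in 1 cell.

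**Figure D3:**
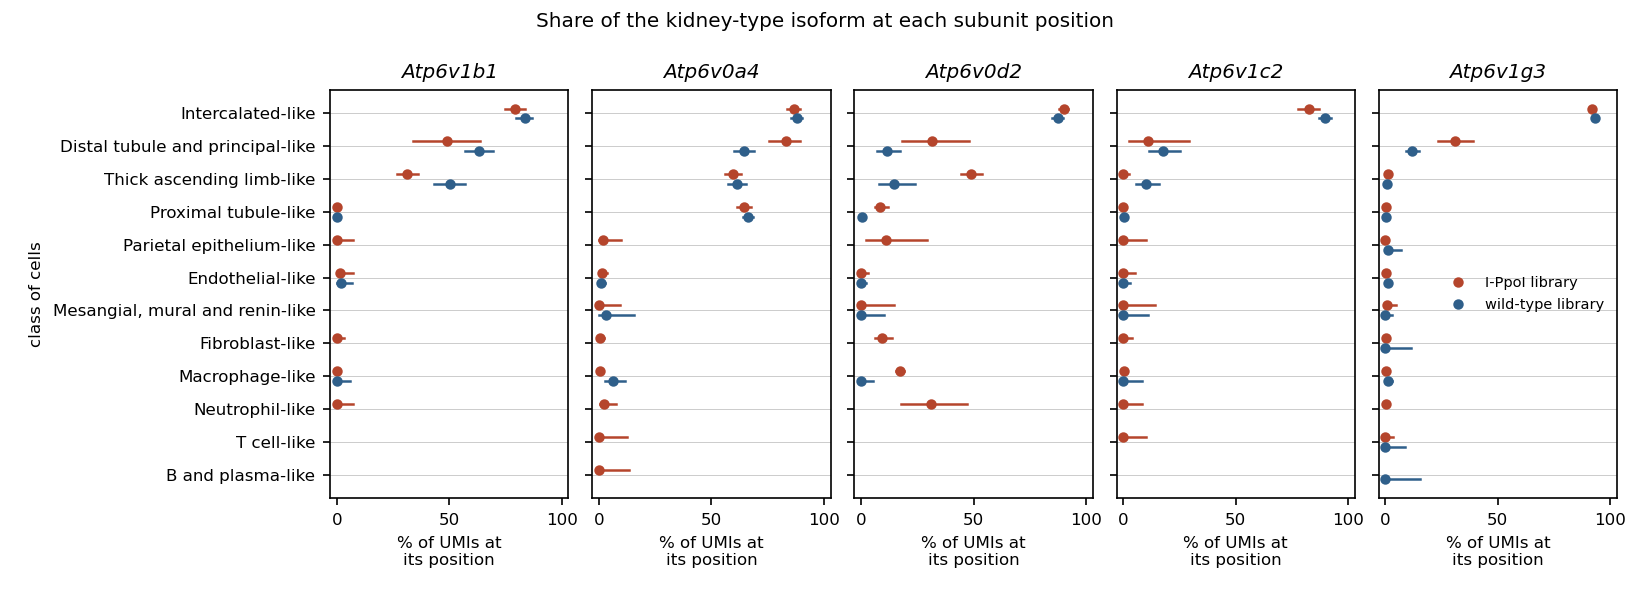
Share of UMIs at a subunit position that came from the kidney-type isoform, by class and library, with exact 95% binomial intervals; points with fewer than 20 UMIs at the position are left out. Intercalated-like cells lie between 79.5% and 93.2% at each position, Atp6v0a4 gives 59.7% or more in the 3 other tubule classes, and Atp6v1g3 gives 1.30% or less outside the intercalated-like and the distal tubule and principal-like cells.

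After intercalated-like cells, distal tubule and principal-like cells came second for each kidney-type member in both libraries, except Atp6v0d2 in the I-PpoI library, where thick ascending limb-like cells did with an overlapping interval. Atp6v1g3 had a wide gap after its first class: the second, distal tubule and principal-like cells, was 26.7-fold (20.0 to 36.5) lower in the I-PpoI and 111-fold (85.6 to 148) lower in the wild-type library. All 46 of the I-PpoI UMIs behind that second place were in 1 cell of 35, and 28 of the 56 wild-type UMIs were in 1 cell of 169. Atp6v0a4 had a broad tubule pattern. It stood at 280 and 183 CPM in distal tubule and principal-like cells and at 116 and 155 CPM in thick ascending limb-like cells. Proximal tubule-like cells had 114 and 125 CPM. Macrophage-like cells had 0.652 and 8.09 CPM, the latter from 9 UMIs, 5 of them in 1 cell. Atp6v1b1 reached 61.9 and 93.6 CPM in distal tubule and principal-like and 29.1 and 47.8 CPM in thick ascending limb-like cells, and 0 and 0.223 CPM in proximal tubule-like cells. For Atp6v1c2 the same second class held 3 UMIs (8.07 CPM) in the I-PpoI and 22 UMIs in the wild-type library. For most members the classes at the low end could not be ordered: intervals of neighbours overlapped at 8 of 10 steps for Atp6v1g3, Atp6v0d2 and Atp6v1c2 and at 7 for Atp6v1b1 and Atp6v0a4 in the I-PpoI library.

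Genes outside the pump family with the most similar levels were found over 20 class and library points by Pearson's r of log CPM; the points share libraries and no p is given. For Atp6v1g3 they were Tmem52, Slc4a9 and Guca2a (highest r 0.982), and Atp6v0d2 had the same 3 genes (highest r 0.939). Atp6v1c2 was most like Aqp6, Hmx2 and Slc4a9 (highest r 0.986). Aqp6, Hmx2 and Slc4a9 are among the markers that named the intercalated-like class, so these matches were partly set by the naming. Atp6v1b1 was most like Myo5c and Tmem117 (highest r 0.967), and Atp6v0a4 was most like Esrrg, Wdr72 and Rab17 (highest r 0.990). Among the members, Atp6v1a had its highest r with Atp6v0a4 (0.93).

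Type A and type B intercalated cells are told apart by the anion exchangers Slc4a1 and Slc26a4 and their partners. By summed UMIs of 4 genes each, 34 I-PpoI cells were more type A and 9 more type B (3 ties), and 26 wild-type cells were more type A and 24 more type B (5 ties). Atp6v1c2 was higher in type B than type A cells of both libraries, 2.59-fold (1.97 to 3.42) in the I-PpoI and 1.99-fold (1.65 to 2.39) in the wild-type library. Atp6v1g3 was also higher in type B, 1.18-fold (1.09 to 1.27) and 2.03-fold (1.90 to 2.17). A pair of members pointed in opposite directions in the libraries: Atp6v0a4 was at 1.29 (1.06 to 1.58) in the I-PpoI and 0.784 (0.661 to 0.927) in the wild-type library, and Atp6v1a at 1.26 (1.11 to 1.41) and 0.779 (0.704 to 0.861). Atp6v1b1 was at 0.924 (0.692 to 1.22) and 0.937 (0.752 to 1.16), with intervals that include 1. The split is not clean: UMIs of both marker sets were in 28 (I-PpoI) and 27 (wild-type) of the intercalated-like cells. Aqp2 stood at 673 CPM in type A and 982 CPM in type B cells of the I-PpoI library. In the wild-type library it stood at 2718 and 715 CPM. Wild-type Atp6v1g3 was at 2876 CPM in the Aqp2-bearing cells and 5297 CPM in the rest. The split was not repeated without Aqp2-bearing cells, and their part in these ratios was not tested. Cells do not stand as replicates here, so these are values of 2 libraries.

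Between libraries, Atp6v1c2 was the 1 member of 10 past 2-fold in intercalated-like cells. It had 221 UMIs (216 CPM) in the I-PpoI and 476 UMIs (469 CPM) in the wild-type library, a ratio of 0.460 (0.391 to 0.541). With each cell weighted equally (the mean of per-cell CPM) its log2 ratio was -0.82 in place of -1.12, and 0 members were past 2-fold. No member was 2-fold higher. Of all genes tested in these cells, 4.41% were 2-fold or more lower and 11.9% higher, and the median log2 ratio was 0.22. Atp6v1b1 was at 0.726 (0.621 to 0.847), Atp6v0a4 at 0.709 (0.630 to 0.797) and Atp6v1a at 0.714 (0.666 to 0.766). Atp6v1g3 was at 0.893 (0.852 to 0.936) and Atp6v0d2 at 1.05 (0.944 to 1.18). The ratios of Atp6v1b2, Atp6v0d1, Atp6v0a1 and Atp6v1g1 had intervals that include 1.

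The lower level of Atp6v1c2 was seen within both cell types. Its log2 ratio was -1.18 among type A cells, -0.80 among type B cells and -1.35 without the Aqp2-bearing cells. Atp6v0a4 was at -0.73 in type A and -0.01 in type B cells, and Atp6v1a at -0.70 and -0.01. Atp6v1g3 differed in sign, at 0.20 in type A and -0.59 in type B cells. Without the Aqp2-bearing cells the count past 2-fold was 3 members, since Atp6v0d1 (log2 ratio 1.06) and Atp6v0a1 (1.23) came on the higher side, where 26.2% of all genes then were. Mitochondrial UMIs made up 8.98% of the class in the I-PpoI and 19.8% in the wild-type library, and leaving them out of the totals lowers each log2 ratio by 0.18. Markers of other cells moved too: the 9 principal cell markers summed to 3663 CPM (I-PpoI) and 7189 CPM (wild-type), all 9 detected in both, and the 10 macrophage markers to 321 CPM (10 detected) and 49.3 CPM (6 detected, with Adgre1, Mrc1, Ms4a7 and Fcgr1 at 0). The part of these values in the differences was not tested.

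**Figure D4:**
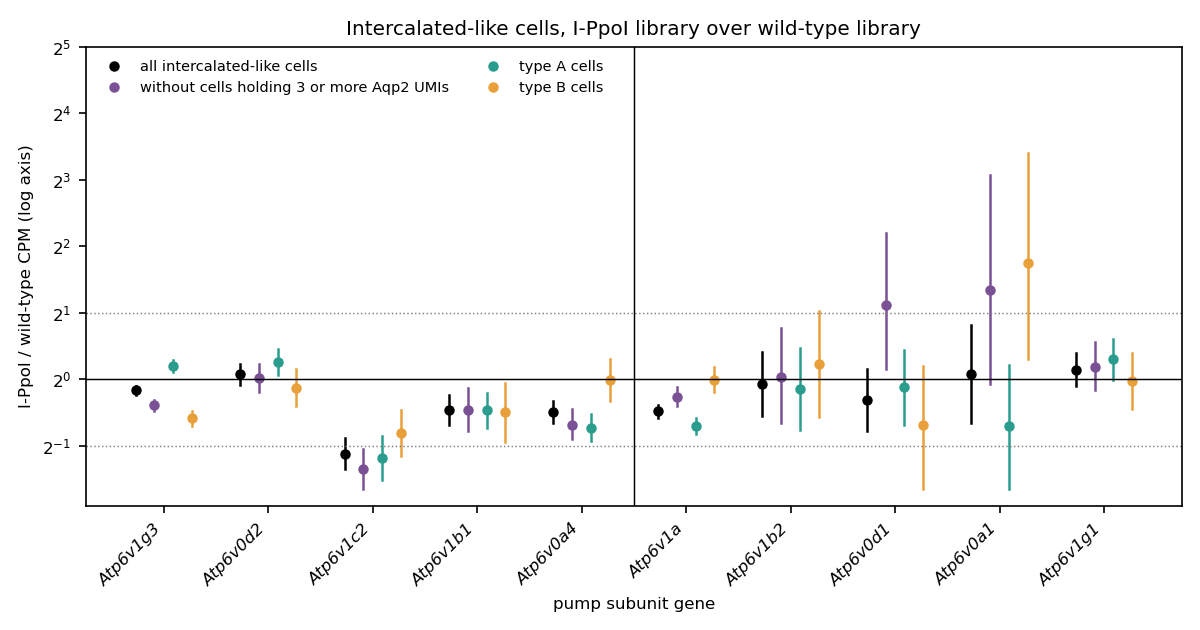
Ratio of CPM in the I-PpoI over the wild-type library for each member in intercalated-like cells, on a log axis with 95% counting intervals, for all cells, without cells holding 3 or more Aqp2 UMIs, and for type A and type B cells; dotted lines mark 2-fold. Atp6v1c2 lies below 1 in each of the 4 sets, and Atp6v0a1 and Atp6v0d1 have wide intervals.

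Other pump genes were a little lower in the I-PpoI intercalated-like cells, and their acid-base partners were lower by more. All 11 measured other pump genes were below 1, as were 3151 of all 8525 genes, with a median log2 ratio of -0.52 and none past 2-fold. Atp6v1e1, the stalk subunit E, had 1132 and 1434 UMIs, Atp6v1f 959 and 1391, and Atp6v1d 365 and 531. Of 20 measured acid-base partners, 9 were 2-fold or more lower, where 4.41% of all genes were, and none higher, where 11.9% were, with a median log2 ratio of -0.99. The exchanger Slc4a1 had 85 UMIs in the I-PpoI and 732 in the wild-type library, Slc26a7 had 1 and 40, and Atp4a, the gastric-type proton pump, had 19 and 83. Foxi1 itself was higher, at 450 against 301 CPM. Of 16 measured lysosome and assembly partners, 4 were 2-fold or more higher (11.9% of all genes), among them the protease Ctsd (1189 and 514 UMIs), and the assembly factor Dmxl2 was the 1 that was 2-fold or more lower (10 and 23 UMIs).

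Outside intercalated cells, Atp6v0d2 was the member that differed most between the libraries. In the I-PpoI library it was found in thick ascending limb-like, distal tubule and principal-like, macrophage-like, neutrophil-like, fibroblast-like and proximal tubule-like cells. In the wild-type library it stayed at or below 11.3 CPM in every class other than intercalated-like cells. Wild-type parietal, fibroblast and neutrophil-like cells had 0 UMIs in 27, 20 and 9 cells, which were too few for a comparison. Endothelial-like cells had 0 UMIs in both libraries (387 and 732 cells), where 3 UMIs would be 1.30 and 0.957 CPM. Atp6v1g3 was counted beside it, and the I-PpoI intercalated-like cells held 3378 UMIs of Atp6v1g3 beside 672 of Atp6v0d2. The I-PpoI thick ascending limb-like cells held 13 UMIs of Atp6v1g3 beside 225 of Atp6v0d2, the macrophage-like cells 12 beside 260, and the fibroblast-like cells 1 beside 23. Proximal tubule-like cells held 5 beside 33, neutrophil-like cells 1 beside 13, and distal tubule and principal-like cells 46 beside 13. The part of RNA from other cells, of any class, in these Atp6v0d2 values was not tested.

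The thick ascending limb-like class needs a caution before its values. Its larger I-PpoI cluster was led by Slc12a1 and Umod, the salt transporter and uromodulin of this segment, and also by the injury genes Lcn2 and Krt19, and 105 of its 252 I-PpoI cells held Slc12a1. The 46 wild-type cells of the same cluster went against the name: 1 held Slc12a1, while 28 held Bst1, a thin limb marker, and 22 held the water channel Aqp1. Most wild-type cells of the class (246) were in a second cluster, where 206 held Slc12a1. The comparison was therefore also made, after seeing these values, among cells with a Slc12a1 UMI, which are not alike either: Slc12a1 stood at 2460 CPM in the I-PpoI and 8257 CPM in the wild-type cells so chosen.

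Among cells of the class with Slc12a1, Atp6v0d2 had 156 UMIs in 116 I-PpoI cells (98.2 CPM, 83.4 to 115) and 13 UMIs in 207 cells of the wild-type library (7.14 CPM, 3.80 to 12.2). The ratio was 13.8 (7.81 to 26.4). It was seen in 37.9% of the I-PpoI and 4.35% of the wild-type cells, with median depths of 6540.5 and 3381 UMIs, and no cell held more than 15. Over the whole class the values were 225 and 13 UMIs, a ratio of 10.0 (5.74 to 19.1). Atp6v0d1, the other d subunit, was 2.60-fold (1.81 to 3.80) higher among the cells with Slc12a1 and 1.80-fold over the class. The kidney forms Atp6v1b1 and Atp6v0a4 were lower in the same cells, at 0.547 (0.387 to 0.766) and 0.674 (0.567 to 0.801). So was Atp6v1a at 0.642 (0.576 to 0.716). Atp6v1g1 was higher there at 1.98 (1.68 to 2.34), as were Atp6v0a1 at 1.86 (1.29 to 2.70) and Atp6v1b2 at 1.39 (1.02 to 1.88). Over the class Atp6v0a1 was at 0.847 (0.660 to 1.09). No share of all genes was computed for the cells with Slc12a1. Atp6v1c2, which passed no minimum here, had 14 UMIs in 14 of these wild-type cells and 0 UMIs in the I-PpoI cells. Over the class, 1 of 8 measured members was past 2-fold, on the higher side, where 18.5% of all genes were, and none lower, where 7.2% were. The median log2 ratio over all genes of the class was 0.28, beside 0.85 for Atp6v0d1. Mitochondrial UMIs made up 9.57% of the class in the I-PpoI and 26.7% in the wild-type library. Leaving them out of the totals lowers each log2 ratio over the class by 0.30. Lcn2 was at 4664 CPM in the I-PpoI and 8.79 CPM in the wild-type cells with Slc12a1, and its part in the result was not tested.

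In macrophage-like cells Atp6v0d2 had 260 UMIs in the I-PpoI and 0 in the wild-type library. With the 0 set at 3 UMIs this is 6.28-fold higher, and the lower bound of the interval was 5.07-fold. The 260 UMIs were in 32 of 1681 cells, and 116 of them were in 1 cell. That cell also held 361 UMIs of the metalloelastase Mmp12 and 51 of Gpnmb among 27497 in all, with 83 of Lyz2 and none of C1qa or Atp6v1g3. Without that cell the level was 9.40 CPM (7.93 to 11.1) in place of 16.9 CPM. With the richest cell of each library left out, the lower bound of the library ratio was 2.78-fold. The cluster led by Lyz2 and Mmp12, with Arg1 among its leading genes, held 228 of the 260 UMIs in 18 of 195 cells (89.6 CPM). It included the cell with 116 UMIs, which itself held 0 UMIs of Arg1. The other macrophage-like clusters held 32 UMIs in 14 of 1486 cells (2.50 CPM). Wild-type cells in the cluster led by Lyz2 and Mmp12 numbered 8, so the comparison there could not be made. Atp6v0d2 is known as a d isoform of macrophages and osteoclasts as well as of intercalated cells.

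The same cluster had more of the common subunits too. Against the other I-PpoI macrophage-like cells, Atp6v1a was 1.64-fold (1.46 to 1.84) higher in it, Atp6v1b2 1.71-fold (1.49 to 1.97), Atp6v0d1 1.66-fold (1.46 to 1.89), Atp6v1g1 1.46-fold (1.36 to 1.57) and Atp6v0a1 1.33-fold (1.11 to 1.57). None of these 5 reached 2-fold, where 5.64% of all genes did, and the median log2 ratio was 0.71 for the 5 beside a median of -0.00 over all genes. Among other pump genes 10 of 13 were above 1 and Atp6v1e1 reached 2.06-fold. Of 20 measured lysosome and assembly partners 16 were above 1 and 3 reached 2-fold, with a median log2 ratio of 0.38. The highest were Gpnmb (53.2-fold) and Ctsd (4.23-fold), and the lysosomal channels Tmem175 (0.522) and Mcoln1 (0.719) were below 1. The remaining kidney forms were near 0 there: Atp6v1b1 and Atp6v1c2 had 0 UMIs, Atp6v0a4 had 1 and Atp6v1g3 had 2.

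**Figure D5:**
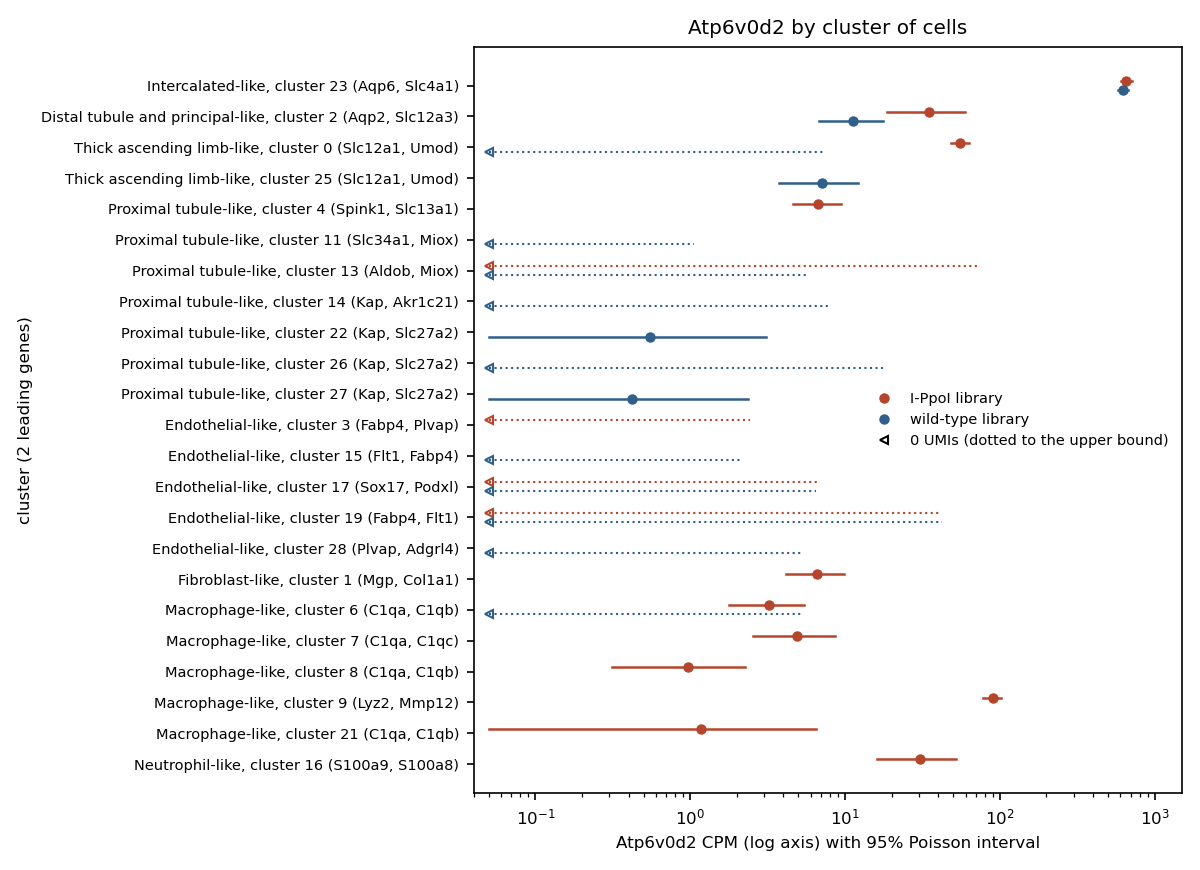
Atp6v0d2 CPM on a log axis with 95% Poisson intervals for each cluster with 20 or more cells in a library, each labelled with its class and 2 leading genes; open triangles mark 0 UMIs, with a dotted line to the upper bound. Beside the intercalated-like cluster, I-PpoI cells of the thick ascending limb-like cluster 0 (55.2 CPM) and of the macrophage-like cluster led by Lyz2 and Mmp12 (89.6 CPM) stand highest. In the macrophage-like cluster 116 of the 228 UMIs were in 1 cell.

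Between libraries, macrophage-like cells had 2 of 6 measured members past 2-fold on the higher side, where 9.26% of all genes were, and none on the lower, where 11.2% were. Beside Atp6v0d2 this was Atp6v1a, with 1539 UMIs (100.3 CPM) in the I-PpoI and 54 UMIs (48.6 CPM) in the wild-type library, a ratio of 2.07 (1.57 to 2.76). Its log2 ratio was 1.03, and 0.91 without the cluster led by Lyz2 and Mmp12. Atp6v1b2 was at 1.33 (1.03 to 1.77), Atp6v0d1 at 1.35 (1.05 to 1.75), Atp6v1g1 at 1.18 (1.05 to 1.34) and Atp6v0a1 at 1.13 (0.854 to 1.52). The mix of clusters differed between the libraries, and the largest wild-type cluster, led by C1qa and C1qb, held 158 wild-type and 564 I-PpoI cells. Within it Atp6v1a stood at 79.6 CPM (71.4 to 88.5) in the I-PpoI and 42.1 CPM (28.2 to 60.4) in the wild-type library, intervals that do not overlap. Atp6v0d2 had 14 UMIs there in the I-PpoI library (3.24 CPM) and 0 in the wild-type library, where the upper bound is 5.35 CPM, so a difference was not detectable at this depth.

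In proximal tubule-like cells Atp6v0a4 stood at similar levels in both libraries, while Atp6v0d2 did not. Atp6v0a4 was at 114 CPM (598 UMIs) in the I-PpoI and 125 CPM (1124 UMIs) in the wild-type library, a ratio of 0.912 (0.824 to 1.01). Atp6v0d2 had 33 UMIs in 14 of 436 I-PpoI cells and 2 UMIs in 2 of the 1337 in the wild-type library. This was 28.3-fold (7.23 to 243), with up to 8 UMIs in 1 cell. It was the 1 of 7 measured members past 2-fold, on the higher side, where 25.6% of all genes were; 6.55% were on the lower side. Atp6v1a was at 0.647 (0.600 to 0.696), Atp6v0a1 at 1.94 (1.56 to 2.42) and Atp6v1g1 at 1.48 (1.41 to 1.56). The median log2 ratio over all genes of the class was 0.42, beside 0.57 for Atp6v1g1. Mitochondrial UMIs made up 10.0% of the class in the I-PpoI and 25.2% in the wild-type library. Leaving them out of the totals lowers each log2 ratio by 0.27. Every one of the 33 I-PpoI Atp6v0d2 UMIs came from the cluster led by Spink1 and Slc13a1, which holds 368 of the 436 I-PpoI cells and 0 wild-type cells, so in this class library and cluster cannot be told apart.

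Distal tubule and principal-like cells were few in the I-PpoI library (35, against 169), and single cells set several values. Atp6v1g3 was 3.73-fold (2.47 to 5.61) higher in the I-PpoI library, but with the richest cell of each library left out it had 0 UMIs in the I-PpoI and 28 in the wild-type library. Atp6v0d2 was 3.11-fold higher (13 and 19 UMIs), of which 9 I-PpoI UMIs were in that same deep cell of 53933 UMIs. Atp6v0a1 was at 0.478 (0.199 to 0.990) on 8 and 76 UMIs, which is a log2 ratio of -0.99 with 0.5 UMIs added and so not past 2-fold. In all, 2 of 10 members were past 2-fold on the higher side and none on the lower in this class, where 5.22% and 8.78% of all genes were. Of the other classes compared, endothelial-like, mesangial, mural and renin-like and T cell-like cells had 5, 5 and 3 measured members, and none was past 2-fold in either direction. The shares of all genes past 2-fold there were 5.74% higher and 6.15% lower, 5.84% and 5.11%, and 10.3% and 6.22%.

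Fibroblast-like and neutrophil-like cells had too few wild-type cells (20 and 9) for a comparison. In the I-PpoI library Atp6v0d2 had 23 UMIs in 17 of 233 fibroblast-like cells (6.59 CPM) and 13 UMIs in 6 of 181 neutrophil-like cells (30.4 CPM). Genes of other classes were present beside it. Fibroblast-like cells had C1qa at 68.8, Arg1 at 49.0 and Gpnmb at 18.9 CPM, where the macrophage-like cluster led by Lyz2 and Mmp12 had 3216, 989 and 166 CPM and Atp6v0d2 at 89.6 CPM. In that cluster 116 of the 228 Atp6v0d2 UMIs were in 1 cell. Neutrophil-like cells had C1qa at 39.7, Gpnmb at 91.1 and Slc12a1 at 128 CPM. The part of RNA from other cells in these Atp6v0d2 values was not tested. The other kidney forms had 2 UMIs or fewer in each.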

How the data were processed

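The deposited values are raw UMI counts per gene and barcode from Cell Ranger, version 6.0.2 per the file headers and 3.1 per the labels' protocols, on an mm10 reference; barcodes were called by the authors before deposit. Barcodes with at least 200 genes and at most 50% mitochondrial UMIs were kept, and the top 4% by Scrublet score in each library were left out, because the automatic threshold marked 30 and 5 cells (0.733% and 0.155%). That left 34721550 (I-PpoI) and 19489090 (wild-type) UMIs. Both libraries were clustered together with scanpy 1.11.5 (2000 variable genes without pump genes, 30 components, 15 neighbours, Leiden resolution 1). A cluster took the name of the marker list with the most genes at 25 CPM or more and 4-fold over the median cluster (10 CPM added to both), needing 3, unless markers of another type outnumbered its own among the 10 genes of largest fold; this naming rule was set after the data were seen.

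UMIs were summed per class and library and given as CPM. Intervals are exact: Poisson for a sum, binomial given the total of both sums for a ratio, and Clopper-Pearson for a share. Log2 ratios have 0.5 UMIs added to each sum. A gene needed 20 UMIs over both sums, a class 30 cells in each library, and size rules of 4-fold (between classes) and 2-fold (between libraries) stood in for a test. All 10 members are reported in the classes that the text names, other genes come from lists of the pump, acid-base partners and lysosome, and of the 3 genes most like each kidney-type member all are named but 1, which is not reported here. The members and lists were chosen with earlier results of these data known. Alternatives covered filters, resolution, doublets, cell naming, weighting and subsets of cells. The ratios and intervals were also read back from simulated Poisson sums. These have no spread between cells, so they check the calculation and not the intervals' fit to real cells. There, 755 of 11474 unchanged genes passed 2-fold between intercalated and macrophage-like cells, and 165 of 8062 between the libraries in intercalated-like cells. Of the 31053 gene identifiers, 30934 matched GENCODE vM21.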

Additional observations from a re-analysis of the deposited data

Results flagged for a closer look

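The library ratio of Atp6v1g3 pointed in opposite directions in neighbouring parts of the nephron. The I-PpoI over wild-type ratio was 3.73 in distal tubule and principal-like cells and 0.893 in intercalated-like cells. The first value rests on 1 I-PpoI cell that held all 46 UMIs.

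The ratio of Atp6v1a was 2.07 in macrophage-like cells, and it was 0.714 in intercalated-like, 0.678 in thick ascending limb-like, 0.647 in proximal tubule-like and 0.743 in endothelial-like cells. With 1 library per group, neither of these differences between cell classes was tested.

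Barcodes that the filters left out, which no comparison uses, held kidney-type subunits above the level that 3 UMIs would give. Atp6v1g3 stood at 4.55 CPM in the I-PpoI library (7 UMIs over 1177 barcodes) and at 15.3 CPM in the wild-type library (112 UMIs over 2319 barcodes). Atp6v0d2 stood at 2.60 CPM in the wild-type library (19 UMIs). The libraries have no control sample for these barcodes.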

How the results depend on the processing

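The count of 6 members past 4-fold between intercalated and macrophage-like cells was 6 in both libraries under every alternative that gave a value. With a 25% mitochondrial limit, resolution 0.5 or no doublet removal, the cluster with 11 of 11 intercalated markers had more principal cell markers among its leading genes and stayed unnamed, so intercalated results have no value there. In intercalated-like cells, the count of 1 member past 2-fold between libraries became 2 with at least 500 genes, 0 with the mean of per-cell CPM and 3 without Aqp2-bearing cells. In macrophage-like cells, the count of 2 became 5 with no minimum of UMIs, 1 without the Arg1-led cluster and 1 with mitochondrial UMIs out of the totals. The log2 ratio of Atp6v1g3 in distal tubule and principal-like cells, 1.90, turned to -1.29 at resolution 2.0, to -0.032 with the mean of per-cell CPM and to -3.45 without the richest cell of each library. By each cell's own marker score, Atp6v0d2 gave 92.8% (I-PpoI) and 90.3% (wild-type) and Atp6v1g3 94.1% (wild-type) of their positions in intercalated-like cells. Without Aqp2-bearing cells the shares were 92.9% for Atp6v1g3 (I-PpoI) and, in the wild-type library, 94.5% for Atp6v0a4, 96% for Atp6v0d2, 94.2% for Atp6v1c2 and 95.2% for Atp6v1g3. Unthinned shares of intercalated-like cells with a UMI (I-PpoI and wild-type) were 100% and 100% for Atp6v1g3, 95.7% and 87.3% for Atp6v0d2, 84.8% and 87.3% for Atp6v1c2, 84.8% and 76.4% for Atp6v1b1, and 89.1% and 87.3% for Atp6v0a4. The direction of single values turned in 9 of 61 with the mean of per-cell CPM, 8 of 59 with at least 500 genes, 7 of 27 with the 25% mitochondrial limit, 3 of 10 among type B cells and 0 of 61 with pump genes kept for clustering, and in 6 or fewer under each other setting. The settings on Aqp2, Arg1, Slc12a1, cell types, mitochondrial totals and single cells were chosen after seeing the data. The causes of these changes were not tested. Depth limits Atp6v1b2, Atp6v0d1 and Atp6v0a1, which had 90 UMIs or fewer in intercalated-like cells of each library. No paired analysis was possible because each group has 1 library.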
